A study of Mus musculus with 2 samples.

Results

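Genes of MHC class I antigen presentation were described in liver RNA sequencing of mice given a GBP5 adenovirus, against mice given a β-Gal adenovirus. The 10 genes were chosen by their GENCODE symbols, and all 10 were found among the 47442 features of the deposited tables: the heavy chains H2-K1 and H2-D1, the light chain B2m, the peptide transporter subunits Tap1 and Tap2, the loading factor Tapbp, the immunoproteasome subunits Psmb8, Psmb9 and Psmb10, and the transactivator Nlrc5. All of them had at least 1 FPKM (fragments per kilobase of transcript, scaled to the library's total) in either library, the level asked of a measured feature, and were far above it.

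MHC class I molecules display short peptides from inside the cell to CD8 T cells, and their presence is also read by NK cells. Peptides are cut by the proteasome, in which interferon-gamma replaces the constitutive catalytic subunits with those of the immunoproteasome. They are then pumped into the endoplasmic reticulum by the TAP transporter and loaded with the help of tapasin onto a heavy chain paired with beta-2-microglobulin, under the transcriptional control of NLRC5. Hepatocytes are known for modest class I expression at rest that interferons raise, while leukocytes and sinusoidal endothelial cells express it strongly.

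The GBP5 group was liver of mice injected in the tail vein with an adenovirus carrying GBP5, an interferon-inducible GTPase, and the β-Gal group was liver of mice injected in the same way with an adenovirus carrying β-galactosidase, a bacterial enzyme. Both groups are labelled C57BL/6, were 8 to 9 weeks old and had the virus for 10 days, so the controls too carried an adenovirus. Each group held 1 library of total RNA from frozen liver, and how many animals went into it was not stated in the labels. With 1 library a group there is no replicate check and no test. "Higher" and "lower" always speak of the GBP5 library. Intervals are 95% intervals that cover counting error only. They take every read as a separate molecule, so PCR copies among the reads would make them too narrow.

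The tables correspond to 17205716 assigned reads in the GBP5 library and 18405429 in the β-Gal library. Mouse Gbp5 was at 19.1 FPKM in the GBP5 library and 4.24 FPKM in the β-Gal library, a ratio of 4.51 (interval 3.91 to 5.21). Most features lay above parity, with a median FPKM ratio of 1.45 among 11828 features that reached 1 FPKM in both libraries. Values are therefore also given after dividing the GBP5 library by that median, called rescaled here, which shifts a log2 ratio by about 0.53. The 8 hepatocyte markers summed to 53563 FPKM in the GBP5 library and 92861 FPKM in the β-Gal library, and none of them was at 0 in either library. Alb made up most of both sums, at 43416 FPKM in the GBP5 library and 74174 FPKM in the β-Gal library. Of the 8, 1 was above its β-Gal level, Apob, with a ratio of 1.04. The 9 pancreatic acinar markers summed to 14.0 FPKM in the GBP5 library and 1018 FPKM in the β-Gal library.

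The GBP5 library went against its strain label at the MHC itself. H2-Ea-ps, the class II alpha chain gene that is not transcribed from the b haplotype of C57BL/6 mice because its promoter is deleted, was at 253 FPKM in the GBP5 library, about 3749 reads at its annotated length, and was listed at 0 in the β-Gal library. Ifi202b, an interferon-inducible gene on chromosome 1 that C57BL/6 mice are known to express little or not at all, had 1014 reads in the GBP5 library and 0 in the β-Gal library, at least 362-fold higher against a floor of 3 reads per library. Ifi202b was named after its value was seen. H2-Ea-ps lies on chromosome 17 between H2-K1 and H2-D1, heavy chain genes known to differ in sequence between strains, and reads were aligned to the C57BL/6J assembly. A difference in strain between the libraries cannot be told apart from that of the virus for any gene, and Ifi202b lies outside the MHC. The 7 members on chromosome 17 and the 3 on others, B2m, Psmb10 and Nlrc5, are counted separately below, which does not free the 3 from such a difference.

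The promoters of the members are shown here because the results turn on genes of a single pathway that did not all move alike. Sequences are RefSeq windows on GRCm38.p6, from 250 bases before to 50 bases after the start site, written along the gene's strand, and were found for 8 of the 10 members. Capitals mark the letters searched on both strands: CCAAT, the box bound by NF-Y; TGACG, a core of the cyclic AMP response element within the class I enhanceosome; TTCNNNGAA, the palindrome of STAT dimers; GAANNGAAA and GAAANNGAA, cores of the interferon-stimulated response element; and the NF-kappaB consensus. GAANNGAAA was added after the windows had been looked at.
H2-K1 (chr17:34000298-34000597, minus strand): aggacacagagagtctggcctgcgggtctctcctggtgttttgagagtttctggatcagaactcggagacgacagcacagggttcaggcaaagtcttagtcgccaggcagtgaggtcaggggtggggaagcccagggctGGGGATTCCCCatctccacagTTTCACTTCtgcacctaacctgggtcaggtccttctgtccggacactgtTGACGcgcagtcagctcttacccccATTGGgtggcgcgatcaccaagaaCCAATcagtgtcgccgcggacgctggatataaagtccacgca
H2-D1 (chr17:35262844-35263143, plus strand): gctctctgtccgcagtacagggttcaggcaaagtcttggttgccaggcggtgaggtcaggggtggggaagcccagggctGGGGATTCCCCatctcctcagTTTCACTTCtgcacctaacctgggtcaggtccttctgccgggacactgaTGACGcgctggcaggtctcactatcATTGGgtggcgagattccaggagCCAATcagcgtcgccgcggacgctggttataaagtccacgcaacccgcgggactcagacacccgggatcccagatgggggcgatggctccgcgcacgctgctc
B2m (chr2:122147437-122147736, plus strand): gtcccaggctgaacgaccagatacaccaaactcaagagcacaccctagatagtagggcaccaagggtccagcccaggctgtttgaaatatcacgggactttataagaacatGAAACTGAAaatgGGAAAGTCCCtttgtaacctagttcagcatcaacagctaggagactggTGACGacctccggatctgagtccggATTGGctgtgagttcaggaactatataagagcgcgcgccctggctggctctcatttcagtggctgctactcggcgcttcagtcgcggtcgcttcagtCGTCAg
Tap1 (chr17:34187306-34187605, plus strand): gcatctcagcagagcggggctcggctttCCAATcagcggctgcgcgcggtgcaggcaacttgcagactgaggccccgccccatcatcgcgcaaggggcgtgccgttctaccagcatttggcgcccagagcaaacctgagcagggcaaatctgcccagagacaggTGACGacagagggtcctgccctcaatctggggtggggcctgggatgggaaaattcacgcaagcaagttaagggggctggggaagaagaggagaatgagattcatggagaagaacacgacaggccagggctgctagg
Psmb8 (chr17:34197945-34198244, plus strand): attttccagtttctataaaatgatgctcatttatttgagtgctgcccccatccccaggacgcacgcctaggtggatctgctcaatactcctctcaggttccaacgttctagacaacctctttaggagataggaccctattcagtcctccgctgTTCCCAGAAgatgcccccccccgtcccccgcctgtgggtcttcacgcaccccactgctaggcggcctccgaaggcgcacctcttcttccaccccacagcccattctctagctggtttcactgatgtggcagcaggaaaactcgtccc

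The windows of H2-K1 and H2-D1 held the same 4 kinds of match in the same order, namely the NF-kappaB consensus, GAANNGAAA, TGACG and 2 matches of CCAAT. They were 89.5% identical over 239 aligned bases. The order began at position -111 in H2-K1 and at -171 in H2-D1, and in both the NF-kappaB consensus matched at 2 positions 1 base apart. In H2-K1 the second CCAAT match lay after the start site, at positions 9 to 13. A second RefSeq window of H2-K1, not shown, held the same order from position -125. That window was 88.9% identical to the H2-D1 window over 253 aligned bases. B2m held GAAANNGAA, the NF-kappaB consensus, TGACG and CCAAT in that order before the start site, and a second TGACG after it. Tap1 and Psmb9 are read away from each other from start sites 226 bases apart, so their windows share 275 bases, and the single TGACG and CCAAT matches of one are those of the other. Psmb8 held TTCNNNGAA, Tapbp held 2 matches of CCAAT, and Psmb10 held none of the letters searched.

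**Figure D1:**
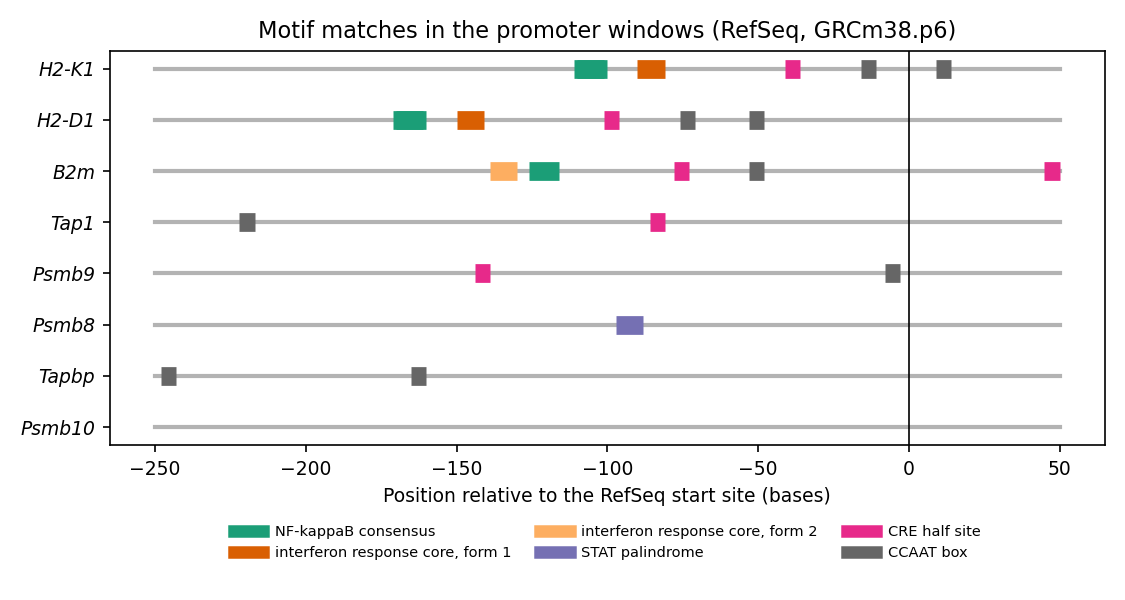
Motif matches in the promoter windows of the 8 members with a RefSeq window, by position relative to the start site in bases (horizontal axis); each row is 1 gene and each coloured block 1 match, with GAANNGAAA as form 1 and GAAANNGAA as form 2 of the interferon response core. H2-K1 and H2-D1 show the same order of matches, and Tap1 and Psmb9 mirror each other.

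Over all 32851 windows of the table, CCAAT was found in 37.4%, TGACG in 20.8%, GAAANNGAA in 8.56%, TTCNNNGAA in 8.3%, GAANNGAAA in 7.52% and the NF-kappaB consensus in 4.51%. Among the 8 members the counts were 6 for CCAAT, 5 for TGACG, 1 for GAAANNGAA, 1 for TTCNNNGAA, 2 for GAANNGAAA and 3 for the NF-kappaB consensus. A match describes letters of the reference sequence and is not a bound site. H2-K1 and H2-D1, with the same kinds of match there, lay on opposite sides of parity in the values that follow. Whether the matches bear on those values was not tested.

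As deposited, 9 of the 10 class I and loading genes had a higher FPKM in the GBP5 library, and H2-K1 had a lower one. Most features of the series also lay above parity as deposited, and after rescaling 8 of the 10 members did. Past 2-fold, 7 of the 10 members were higher and 0 lower by log2 of (FPKM + 1), against 19.2% and 5.56% of all 13599 measured features. The median log2 ratio of the members was 1.12, beside 0.48 over all measured features. After rescaling, 1 member (Psmb8) was at least 2-fold higher and 1 (H2-K1) at least 2-fold lower, against 7.04% and 9.38% of features, and the median was 0.59 beside 0.03. Of the 7 members on chromosome 17, 5 were at least 2-fold higher, with a median log2 ratio of 1.13, and of the 3 others, 2 were, with a median of 1.09; rescaled medians were 0.60 and 0.56.

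**Figure D2:**
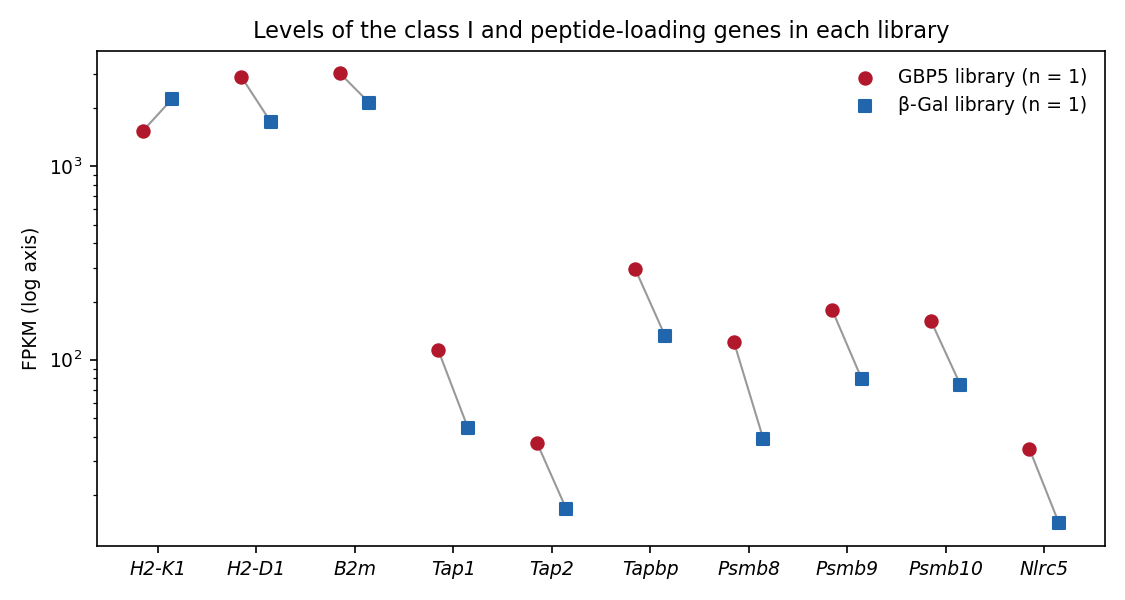
FPKM of each of the 10 genes (vertical axis, logarithmic) in the GBP5 library (red circles) and the β-Gal library (blue squares), 1 library per group, with no error bars because there are no replicates. H2-K1, at 1525 FPKM in the GBP5 library and 2243 FPKM in the β-Gal library, is the gene whose red point is below the blue one.

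H2-K1 encodes the K heavy chain, the polymorphic transmembrane chain that holds the peptide (ENSMUSG00000061232, chromosome 17, 33996017 to 34000347, minus strand, GRCm38). It was at 1525 FPKM in the GBP5 library and 2243 FPKM in the β-Gal library, from 29423 reads in the GBP5 library and 46287 in the β-Gal library. The ratio was 0.680 (interval 0.670 to 0.690), or 0.470 (interval 0.463 to 0.477) rescaled, and 90.3% of measured features had a higher log2 ratio. It ranked 39 by level in both libraries.

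H2-D1 encodes the D heavy chain, which has the same role as K (ENSMUSG00000073411, chromosome 17, 35262730 to 35267499, plus strand). It was at 2909 FPKM in the GBP5 library and 1695 FPKM in the β-Gal library, from 45251 reads in the GBP5 library and 28197 in the β-Gal library. The ratio was 1.72 (interval 1.69 to 1.74), or 1.19 (interval 1.17 to 1.20) rescaled. The order of the heavy chains by FPKM thus differed between the libraries, with H2-D1 above H2-K1 in the GBP5 library and below it in the β-Gal library.

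The ratio of H2-K1 to H2-D1 within a library does not depend on how the libraries are scaled. It was 0.524 in the GBP5 library and 1.32 in the β-Gal library, a change of 0.396 (interval 0.388 to 0.404). The sum of both heavy chains was 4435 FPKM in the GBP5 library and 3938 FPKM in the β-Gal library, a ratio of 1.13 and a log2 ratio of -0.36 after rescaling, so that the sum was above parity as deposited and below it rescaled. These genes resemble each other and the H2-Q genes: of the 50-base windows in annotated transcripts, 9.63% of those of H2-K1 and 12.8% of those of H2-D1 also occur in a transcript of another gene, which makes a part of their reads uncertain. The shares fall to 0.957% and 3.59% for windows of 100 bases. Among 50-base windows, H2-K1 shared most with H2-Q10 (5.18%, FPKM ratio 0.377). H2-D1 shared most with H2-Q1 (5.87%, FPKM ratio 1.31). These shares rest on reference transcripts and do not cover alleles of another strain. Whether a strain difference altered how H2-K1 and H2-D1 reads aligned was not tested. Neither the counting intervals nor the ratios within a library allow for it.

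B2m encodes beta-2-microglobulin, the invariant light chain of all classical class I molecules (ENSMUSG00000060802, chromosome 2, 122147686 to 122153083, plus strand). It was at 3035 FPKM in the GBP5 library and 2131 FPKM in the β-Gal library, from 44912 reads in the GBP5 library and 33729 in the β-Gal library. The ratio was 1.42 (interval 1.40 to 1.44), close to the median feature, and 0.984 (interval 0.970 to 0.998) rescaled. None of its 50-base windows occurs in another gene's transcripts. B2m ranked 16 by level in the GBP5 library and 41 in the β-Gal library, while its share of all FPKM was 0.417% in the GBP5 library and 0.28% in the β-Gal library.

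Set against B2m within each library, the heavy chains went apart. H2-K1 to B2m was 0.503 in the GBP5 library and 1.05 in the β-Gal library, a change of 0.477 (interval 0.468 to 0.487). H2-D1 to B2m was 0.959 in the GBP5 library and 0.795 in the β-Gal library, a change of 1.21 (interval 1.18 to 1.23). H2-K1, H2-D1 and B2m together took 0.695% of assigned reads in the GBP5 library and 0.588% in the β-Gal library.

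Both subunits of the peptide transporter were higher. Tap1 (ENSMUSG00000037321, chromosome 17, 34187553 to 34197225, plus strand) was at 112 FPKM in the GBP5 library and 44.4 FPKM in the β-Gal library, from 4544 reads in the GBP5 library and 1933 in the β-Gal library, a ratio of 2.51 (interval 2.38 to 2.65). Tap2 (ENSMUSG00000024339, chromosome 17, 34203527 to 34216321, plus strand) was at 37.3 FPKM in the GBP5 library and 16.8 FPKM in the β-Gal library, from 911 reads in the GBP5 library and 440 in the β-Gal library, a ratio of 2.21 (interval 1.97 to 2.49). The proteins pair to form the transporter. Tap1 to Tap2 by FPKM was 2.997 in the GBP5 library and 2.64 in the β-Gal library. The change of that ratio was 1.14 with an interval of 0.999 to 1.29, so that a difference between the subunits was not detectable at this depth. Rescaled, the log2 ratios were 0.78 for Tap1 and 0.59 for Tap2, short of 2-fold.

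Tapbp encodes tapasin, which bridges the transporter and the empty heavy chain and helps to select peptides (ENSMUSG00000024308, chromosome 17, 33915899 to 33929292, plus strand). It was at 293 FPKM in the GBP5 library and 133 FPKM in the β-Gal library, from 5341 reads in the GBP5 library and 2597 in the β-Gal library. The ratio was 2.20 (interval 2.10 to 2.31), or 1.52 rescaled. Of its 50-base transcript windows, 20.3% also lie in the antisense gene Gm19412, which was listed at 0 in both libraries; the labels do not state whether counting used strand. Tapbp also overlaps Zbtb22 on the same strand, a gene at 13.9 FPKM in the GBP5 library and 14.9 FPKM in the β-Gal library.

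All 3 immunoproteasome subunits were at least 2-fold higher. Psmb8, which encodes the chymotrypsin-like subunit that favours peptides with hydrophobic ends (ENSMUSG00000024338, chromosome 17, 34197721 to 34201454, plus strand), was at 124 FPKM in the GBP5 library and 38.7 FPKM in the β-Gal library, from 3088 reads in the GBP5 library and 1034 in the β-Gal library. Its ratio of 3.19 (interval 2.98 to 3.43) was the highest of the 10 members, and 4.9% of measured features had a higher log2 ratio. The read numbers of Psmb8 and Psmb9, and so the widths of their intervals, are uncertain by a whole factor that leaves the ratio as it is. Psmb8 was the member that stayed past 2-fold after rescaling, at 2.21 (interval 2.06 to 2.37).

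Psmb9 encodes the subunit that replaces the caspase-like one (ENSMUSG00000096727, chromosome 17, 34181987 to 34187764, minus strand). It was at 179.8 FPKM in the GBP5 library and 79.1 FPKM in the β-Gal library, from 3428 reads in the GBP5 library and 1614 in the β-Gal library, a ratio of 2.27 (interval 2.14 to 2.41). Psmb10 encodes the subunit that replaces the trypsin-like one (ENSMUSG00000031897, chromosome 8, 105935735 to 105938444, minus strand). It was at 159 FPKM in the GBP5 library and 74.1 FPKM in the β-Gal library, from 1739 reads in the GBP5 library and 866 in the β-Gal library, a ratio of 2.15 (interval 1.98 to 2.33). The intervals of Psmb9 and Psmb10 overlap each other and lie below that of Psmb8. Psmb9 and Tap1, which share a promoter region, had intervals that overlap narrowly, and their annotations overlap by 212 bases on opposite strands, so some reads there cannot be assigned to either without strand.

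**Figure D3:**
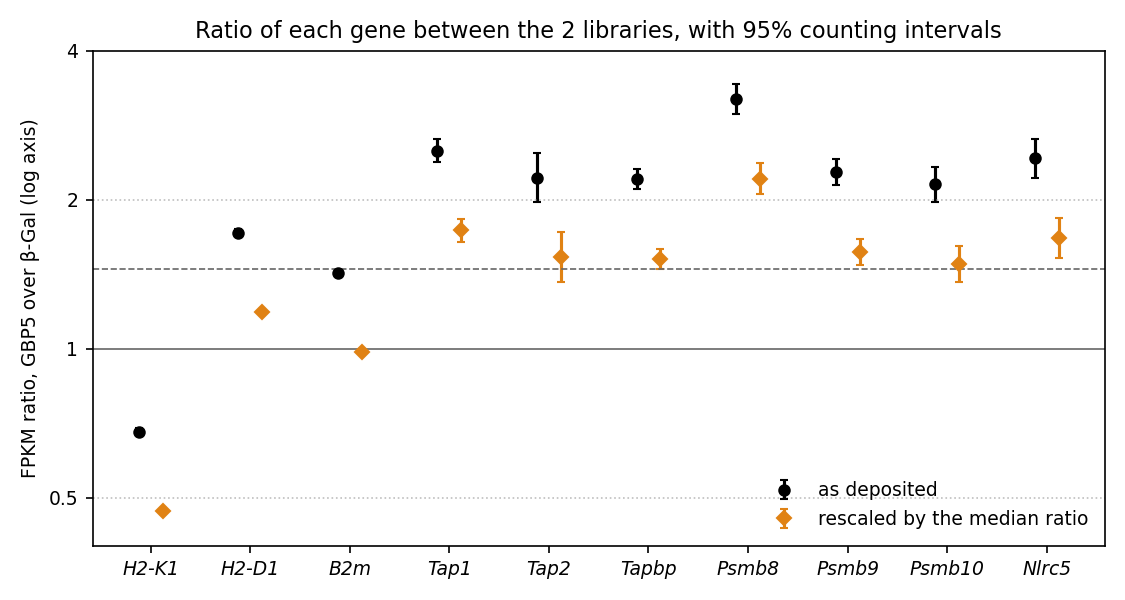
FPKM ratio of each gene, GBP5 over β-Gal (vertical axis, logarithmic), as deposited (black circles) and rescaled by the median ratio (orange diamonds), with 95% counting intervals; the dashed line is the median ratio of 1.45, the dotted lines are 2-fold. As deposited, 7 genes lie above 2 and H2-K1 lies at 0.680, and rescaled, Psmb8 lies above 2 and H2-K1 at 0.470.

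Each immunoproteasome subunit has a constitutive counterpart, and the balance within a library again does not depend on scaling. Psmb8 to Psmb5 was 1.44 in the GBP5 library and 0.748 in the β-Gal library, a change of 1.92 (interval 1.71 to 2.15). Psmb9 to Psmb6 was 0.706 in the GBP5 library and 0.471 in the β-Gal library, a change of 1.497 (interval 1.38 to 1.62). Psmb10 to Psmb7 was 2.05 in the GBP5 library and 1.47 in the β-Gal library, a change of 1.40 (interval 1.27 to 1.55). All 3 balances stood further towards the immunoproteasome in the GBP5 library, and for Psmb8 the larger of the pair by FPKM changed from one library to the other. The constitutive subunits Psmb5, Psmb6 and Psmb7 were at 86.1, 255 and 77.5 FPKM in the GBP5 library, against 51.8, 168 and 50.6 FPKM in the β-Gal library. Their ratios of 1.66, 1.52 and 1.53 lay near the median ratio of all features.

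**Figure D4:**
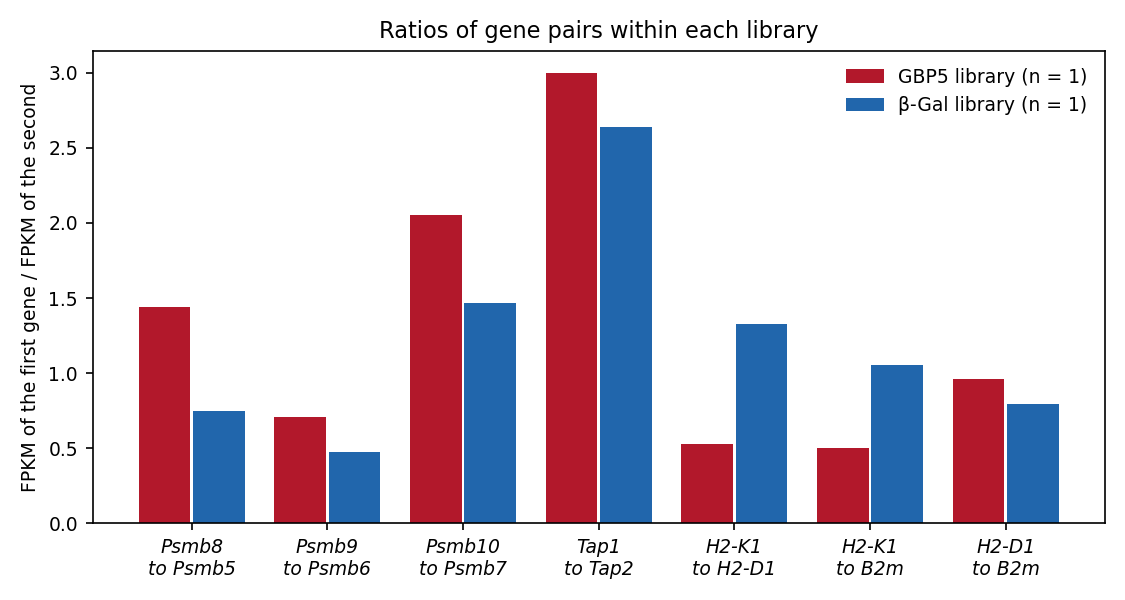
FPKM of the first gene divided by FPKM of the second (vertical axis, from 0) for 7 pairs, in the GBP5 library (red bars) and the β-Gal library (blue bars), 1 library each and no error bars. The 3 pairs of immunoproteasome and constitutive subunits are higher in the GBP5 library, and H2-K1 to H2-D1 is lower, at 0.524 in the GBP5 library against 1.32 in the β-Gal library.

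Nlrc5 encodes the NOD-like receptor that enters the nucleus and drives class I, B2m, Tap1 and Psmb9 promoters (ENSMUSG00000074151, chromosome 8, 94434356 to 94527272, plus strand). It was at 34.6 FPKM in the GBP5 library and 14.3 FPKM in the β-Gal library, from 1518 reads in the GBP5 library and 670 in the β-Gal library. The ratio was 2.42 (interval 2.21 to 2.66), or 1.67 rescaled, within the range of the transporter and immunoproteasome genes and above the ratios of H2-K1, H2-D1 and B2m.

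Relative to B2m in the same library, the 7 processing, loading and transactivator genes were all higher in the GBP5 library. The change of their ratio to B2m ran from 1.51 (interval 1.39 to 1.64) for Psmb10, through 1.54 for Tapbp, 1.55 for Tap2, 1.60 for Psmb9, 1.70 for Nlrc5 and 1.77 for Tap1, to 2.24 (interval 2.09 to 2.41) for Psmb8. None of these intervals overlaps that of H2-D1 to B2m, and all lie above 1.

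The other proteasome lists had medians below that of the members. The 11 noncatalytic core proteasome subunits had 1 member at least 2-fold higher and 0 lower (median log2 ratio 0.79); Psma1, a structural subunit of the outer ring, was at 303 FPKM in the GBP5 library and 128 FPKM in the β-Gal library. Of 9 genes of proteasome activators and assembly, 2 were higher and 0 lower (median 0.67), namely Psme1 and Psme2, the subunits of the interferon-inducible activator cap. Psme1 was at 371 FPKM in the GBP5 library and 149 FPKM in the β-Gal library, and Psme2 at 515 FPKM in the GBP5 library and 204 FPKM in the β-Gal library. Their ratios of 2.49 and 2.52 lay near that of Tap1. After rescaling no gene of either list passed 2-fold. Of all measured features, 19.2% were at least 2-fold higher and 5.56% lower as deposited, and 7.04% and 9.38% rescaled.

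Among chaperones and peptidases, most genes stayed within 2-fold, as did most measured features. Of those features, 19.2% were higher and 5.56% lower. Of 10 genes of folding, loading and trimming in the endoplasmic reticulum, 1 was at least 2-fold higher and 0 lower (median 0.71), Lnpep, an aminopeptidase of endosomal trimming, at 4.92 FPKM in the GBP5 library and 1.71 FPKM in the β-Gal library. Rescaled, with a pseudocount of 5 FPKM or with a filter of 5 FPKM, 0 genes of this list passed 2-fold. Pdia3, the disulfide isomerase of the loading complex, was at 796 FPKM in the GBP5 library and 414 FPKM in the β-Gal library, a ratio of 1.92 (interval 1.87 to 1.97). Of 8 cytosolic peptidases, 1 was higher and 0 lower (median 0.77), also after rescaling: Thop1, which destroys many class I peptides, was at 29.9 FPKM in the GBP5 library and 7.18 FPKM in the β-Gal library, a ratio of 4.17 (interval 3.53 to 4.93).

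Among 14 regulators of class I genes, 4 passed 2-fold upwards and 0 downwards, with a median log2 ratio of 0.82. Rescaled, 3 passed upwards and 0 downwards. The shares of all measured features were 19.2% and 5.56% as deposited, and 7.04% and 9.38% rescaled. Ciita, the class II transactivator related to Nlrc5, was at 10.01 FPKM in the GBP5 library and 1.14 FPKM in the β-Gal library, a ratio of 8.80 (interval 7.21 to 10.8). Irf8, a factor of myeloid cells that also answers interferon-gamma, was at 97.6 FPKM in the GBP5 library and 30.9 FPKM in the β-Gal library, and Irf1, an interferon-inducible activator that was named outside the rule, was at 115 FPKM in the GBP5 library and 55.2 FPKM in the β-Gal library. The Nlrc5 ratio lay below that of Ciita, with intervals that do not overlap.

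Other class I chains were mixed. The shares of all measured features past 2-fold were 19.2% higher and 5.56% lower as deposited, and 7.04% and 9.38% rescaled. Past 2-fold, 5 of the 15 chains were higher and 1 was lower (2 and 1 rescaled). Their median log2 ratio was 0.59. The chain that was lower was H2-Q10, a secreted class I chain that hepatocytes make. It was at 349 FPKM in the GBP5 library and 925 FPKM in the β-Gal library, a ratio of 0.377 (interval 0.371 to 0.384). H2-T10 was at 20.8 FPKM in the GBP5 library and 4.32 FPKM in the β-Gal library, and H2-T24 was at 16.1 FPKM in the GBP5 library and 4.43 FPKM in the β-Gal library. All 5 MHC class II genes were at least 2-fold higher, before and after rescaling, among them Cd74, the invariant chain, at 591 FPKM in the GBP5 library and 97.5 FPKM in the β-Gal library, and H2-Eb1 with a ratio of 6.14. One of the 5 is H2-Ea-ps, and without it the median log2 ratio was 2.20 in place of 2.59. Apart from Cd74 these genes, like the H2-Q and H2-T genes, lie on chromosome 17, where MHC haplotype and virus cannot be told apart. Of 12 receptors that read class I, 7 were measured, 6 were higher and 0 lower. Rescaled, 1 was higher and 0 lower, and 0 were higher with a pseudocount of 5 FPKM. Cd8a was at 8.38 FPKM in the GBP5 library and 2.15 FPKM in the β-Gal library. Cd8b1 was at 8.94 FPKM in the GBP5 library and 2.97 FPKM in the β-Gal library, and Klrd1 at 10.5 FPKM in the GBP5 library and 3.81 FPKM in the β-Gal library.

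**Figure D5:**
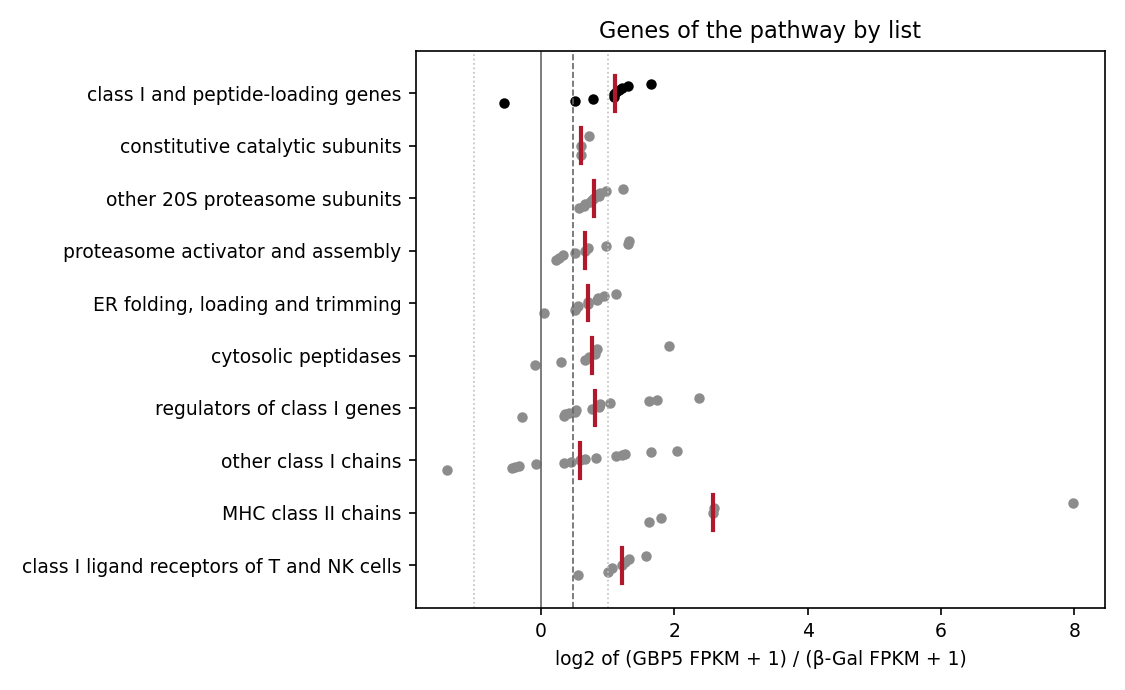
Log2 of (GBP5 FPKM + 1) / (β-Gal FPKM + 1) on the horizontal axis for each measured gene (points) of the 10 members (black) and 9 lists of the pathway (grey), with the median of each as a red bar; the dashed line is the median of all measured features at 0.48 and the dotted lines are 2-fold. The member median of 1.12 lies to the right of the medians of the proteasome and chaperone lists. It lies to the left of the medians of the class II and receptor lists. The point at 7.99 is H2-Ea-ps.

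Markers of other cells differed beside these results, and in whole liver fewer cells of a type and less RNA per cell cannot be told apart. The 6 general leukocyte markers were all above their β-Gal level and summed to 818 FPKM in the GBP5 library and 375 FPKM in the β-Gal library. The ratio of these sums was 2.18. Among the members, H2-K1 (0.680), B2m (1.42), H2-D1 (1.72) and Psmb10 (2.15) had lower ratios. The other members had higher ones, from 2.20 for Tapbp to 3.19 for Psmb8. The 12 T and NK cell markers summed to 127 FPKM in the GBP5 library and 42.6 FPKM in the β-Gal library, with 11 of 12 above their β-Gal level. The 5 dendritic cell markers summed to 37.9 FPKM in the GBP5 library and 9.47 FPKM in the β-Gal library, with 5 of 5 above. Only 10 of these 12 and 3 of these 5 were measured, so both tallies include markers below 1 FPKM in both libraries. The 8 macrophage and Kupffer cell markers summed to 735 FPKM in the GBP5 library and 590 FPKM in the β-Gal library, with 5 of 8 above their β-Gal level, and Cd5l alone at 345 FPKM in the GBP5 library and 191 FPKM in the β-Gal library; Vsig4, Lyz2 and Clec4f had ratios of 0.243, 0.663 and 0.932. In the same libraries the 6 sinusoidal endothelial markers summed to 155 FPKM in the GBP5 library and 120 FPKM in the β-Gal library, with 4 of 6 above. The 7 neutrophil markers went the other way, at 196 FPKM in the GBP5 library and 1911 FPKM in the β-Gal library. The 4 B cell markers, 2 of them measured, stood at 2.22 FPKM in the GBP5 library and 3.89 FPKM in the β-Gal library. No marker of these 7 cell types was at 0 in either library. Most features of the series also lay above parity as deposited. Rescaled, the ratio of sums was 1.51 for general leukocytes, 2.05 for T and NK cells and 2.76 for dendritic cells. It was 0.860 for macrophages and Kupffer cells and 0.890 for sinusoidal endothelium, both below parity. For neutrophils it was 0.0707 and for B cells 0.394. The part of these cell types in the class I values was not tested.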

How the data were processed

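Liver RNA in 2 libraries, 1 per group, was used as the authors deposited it, in FPKM per Ensembl gene. TopHat2, HTSeq 0.6.1 and GRCm38 were named in the submitters' processing notes; the sources used here do not give the FPKM program, annotation release, strand setting or handling of reads with several matches. Symbols and positions came from GENCODE M21 on GRCm38, by identifier, for 46488 of 47442 features.

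Reads were recovered from the deposited FPKM. The step of 1 read in genes with 1 isoform gave each library's total. The reduced fraction of a gene's scaled values (relative tolerance 1e-12) gave its reads up to a whole factor, taken as the one whose implied gene length is whole and nearest to the annotated mean isoform length. The fraction step was added after the files were seen. It resolved 98.7% of 18033 genes above 0 in both libraries, and all 10 members. For Psmb8 and Psmb9 other factors also gave whole lengths, so their read numbers and the widths of their intervals are uncertain; their FPKM ratios are not affected. Levels of different genes rest on these mean lengths and compare loosely.

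Log2 ratios were those of FPKM + 1, GBP5 over β-Gal; a feature was measured with 1 FPKM or more in at least 1 library (13599 features). The pseudocount understates the change of low genes. Counts past 2-fold stand in place of a test, since no group had replicates. Intervals of a ratio were exact Clopper-Pearson intervals at 95%, and those of changes in within-library ratios exact conditional intervals of the odds ratio (SciPy 1.17.1). The steps were tested on simulated data.

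The members and lists were chosen with earlier results of these data known. The rule for named genes took all members, Gbp5, H2-Ea-ps, Psmb5, Psmb6, Psmb7 and, from each list, the 3 genes with the largest absolute log2 ratio. Irf1, Ifi202b, Cd5l, Lyz2, Clec4f, Alb, Apob and genes that overlap a member were named outside it, after their values were seen. One gene that the rule names is not reported here. Alternatives changed the pseudocount (0.1 or 5 FPKM), the filter (none or 5 FPKM), the scaling (median ratio, equal sums as TPM, equal sums leaving out the 50 most abundant genes) or kept protein-coding genes alone.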

Additional observations from a re-analysis of the deposited data

How the results depend on the processing

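Rescaling by the median ratio left 1 member at least 2-fold higher and 1 lower and a member median of 0.59 (log2), against 7, 0 and 1.12 as deposited. With equal sums leaving out the 50 most abundant genes, 4 were higher and the median was 0.97. Among the members outside chromosome 17, an alternative chosen after seeing the data, 2 of 3 were higher. Scaling moves every gene by nearly the same log2 amount, and the last alternative holds fewer genes. The other 6 alternatives left the member counts within 1.5 times and the median within 0.1. Of these, the filters and the restriction to protein-coding genes could not move any member, since all members are protein-coding and above 5 FPKM. H2-K1 lay below parity under all 8 alternatives to the settings, from -1.09 after rescaling to -0.50 with equal sums. For H2-K1 only the changes of scaling could move the value by much, because a pseudocount is small beside its level. Over all features, a pseudocount of 5 FPKM gave 1101 higher and 435 lower, against 2605 and 756 with 1 FPKM, and rescaling gave 958 and 1276. With a pseudocount of 5 FPKM the receptor list had 0 genes past 2-fold, against 6. No paired analysis was possible because each group held 1 library. Depth limited the comparison of Tap1 with Tap2, the member with the fewest reads (440 in the β-Gal library); with 1 library per group, the spread between animals is unknown.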
